A study of Mus musculus with 9 samples.

Results

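Aminoacyl-tRNA synthetases are the enzymes that load each amino acid onto its transfer RNA. Their genes were followed across 9 mouse Affymetrix arrays, 3 of control cells, 3 of abnormal non-malignant cells and 3 of NIC tumors, from a study of T cell acute lymphoblastic leukemia and NOTCH1 overexpression. A gene was taken as a member if it stands on a list of 36 synthetases (20 cytosolic, and 16 mitochondrial with names ending in 2) and has a probe set that the platform annotation assigns to it alone. This gave 35 of the 18193 genes on the arrays, 19 cytosolic and 16 mitochondrial, with 72 probe sets between them; Dars was not analysed here. The level of a gene is the deposited log2 value of its probe set with the highest mean over the 9 arrays. The labels call the samples sorted cells and give no genotype, strain, age or sorted population for any group, do not spell out NIC, and name no animals. Since nothing marks the 3 samples of a group as separate animals, the p-values measure only how far these samples spread, and that spread may be technical.

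Each synthetase recognises its amino acid and its tRNA, spends ATP to activate the amino acid and joins the pair, so that the ribosome reads the code correctly. Animal cells keep a cytosolic set and a mostly separate mitochondrial set, both encoded in the nucleus. The enzymes fall into class I and class II by the fold of the catalytic domain. In the cytosol several of them sit in a multisynthetase complex held together by the scaffold proteins AIMP1, AIMP2 and AIMP3 (the last encoded by Eef1e1). Many cytosolic synthetase genes are known targets of ATF4, the transcription factor of the amino acid response, and the group is also known to follow MYC-driven growth.

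Genes entered the test when at least 3 of the 9 arrays placed them above their own 40th percentile. All 35 members passed this filter except Mars2, the mitochondrial methionyl-tRNA synthetase, which stood at 3.64 to 4.01 on the 9 arrays, below the 40th percentile (5.14 to 5.3) of each. One limma model with a mean per group was fitted to 13296 genes, and a gene is called higher (or said to have risen) when its p, adjusted by Benjamini-Hochberg over these 13296 genes, was under 0.05. On simulated data this rule let through more unchanged genes than its threshold allows in both comparisons with tumors, so every call in tumors is to be read with that in mind. Several arrays stood apart before any group was compared. Non-malignant 2 and 3 were nearly alike (SD of their gene differences 0.16, against 0.3 for the next closest pair), tumor 1 lay nearer to the non-malignant arrays (0.46 to 0.47) than to tumors 2 and 3 (0.63 and 0.79), and on tumor 3 the values spanned less (SD 1.96, elsewhere 2.11 to 2.19). All 11 measured T lineage markers lay above the 40th percentile on every array. The precision is limited by the number of arrays, 3 a group. The comparisons with controls share the control arrays, and the comparisons with tumors share the tumor arrays.

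The promoters of some cytosolic members carry sites for the regulators named above, and they are shown here because the levels of those regulators are set beside the synthetases further on. RefSeq promoter windows of GRCm38.p6 (250 bases before to 50 after the start) were found for 26 members, 12 cytosolic and 14 mitochondrial. The letters TGATGNAA, a C/EBP-ATF response element bound by ATF4, were found on either strand in 5 of the 12 cytosolic windows (Aars, Gars, Iars, Tars and Yars) and in 0 of the 14 mitochondrial ones, against 4.51% of 27025 genes with a window. The E-box CACGTG, the canonical MYC site, was found in 4 of 12 cytosolic windows (Aars, Farsb, Iars and Tars) and 1 of 14 mitochondrial ones (Ears2), against 8.09% of genes. The interferon-stimulated response element, searched as GAAA, any 2 bases and GAAA again, was found in 1 of 26, Qars, against 3.99%. A match is a run of letters and not a measured binding site, and the motifs searched do not overlap one another in these windows. The Aars window is set on a start inside the gene, whose span begins at chr8:111027778. In the stretches below, which lie before the start site and run 5′ to 3′ on the gene's strand, capitals mark the matches.
Gars, chr6:55037936-55038000, plus strand, response element 30 to 23 bases before the start: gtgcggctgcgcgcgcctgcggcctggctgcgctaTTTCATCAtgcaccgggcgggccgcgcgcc
Aars, chr8:111033661-111033772, plus strand, E-box 146 to 141 and response element 112 to 105 bases before the start: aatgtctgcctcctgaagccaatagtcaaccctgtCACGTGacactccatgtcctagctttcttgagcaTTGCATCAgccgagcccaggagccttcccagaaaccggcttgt
Tars, chr15:11399659-11399708, minus strand, response element 15 to 8 bases before the start: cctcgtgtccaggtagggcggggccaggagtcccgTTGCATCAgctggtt
Iars, chr13:49682026-49682101, plus strand, E-box 69 to 64 bases before the start: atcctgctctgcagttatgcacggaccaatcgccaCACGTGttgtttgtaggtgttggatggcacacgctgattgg
Farsb, chr1:78488898-78488971, minus strand, E-box 39 to 34 bases before the start: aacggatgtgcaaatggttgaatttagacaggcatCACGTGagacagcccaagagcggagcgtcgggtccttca

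Cytosolic synthetases rose in the NIC tumors against the controls, led by Vars (3.03-fold), Kars (2.1-fold) and Gars (1.95-fold). Of the 19 tested, 10 rose, 0 fell and 9 did not pass, where 8.48% of all genes tested rose and 7.19% fell. In 16 of 19 all 3 tumors lay above all 3 controls, as did 18.2% of all genes. The median log2 fold change of the 19 was 0.74, against 0.06 over all genes. In bulk RNA, a change in the share of a cell type and a change in RNA per cell cannot be told apart. Members of the multisynthetase complex (5 of 7 rose, median 0.88) and cytosolic enzymes outside it (5 of 12, median 0.73) both contributed, as did class I (5 of 9) and class II (4 of 9) enzymes; the fused Eprs holds both classes and is in neither count. The plot of cytosolic members by array shows these values for every gene.

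**Figure D1:**
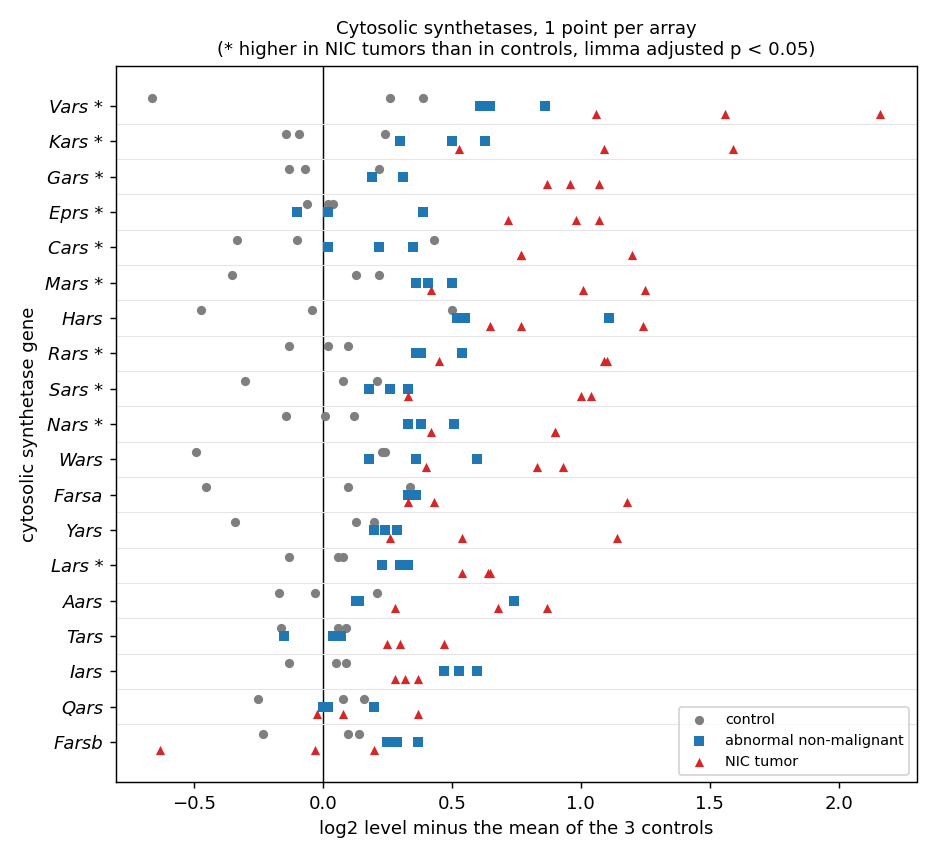
Log2 level of the 19 cytosolic synthetases on each array (points; horizontal axis, log2 units) minus the mean of the 3 controls, with genes ordered by the tumor mean and an asterisk on the 10 that rose in tumors. The tumor points of Vars reach farthest to the right (mean difference 1.6), and in 9 genes all non-malignant points lie to the right of all control points.

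Vars, which charges valine, showed the largest rise and is the cytosolic enzyme that travels with elongation factor 1 rather than with the multisynthetase complex. It read 9.33, 8.41 and 9.46 on control arrays 1, 2 and 3, 9.93, 9.72 and 9.68 on the non-malignant arrays and 10.13, 10.63 and 11.23 on the tumors. The 3 groups did not overlap, control 2 was the lowest array and tumor 3 the highest. Tumors stood 3.03-fold above controls (log2 fold change 1.6 ± 0.33 SE, n = 3 each, limma adjusted p = 0.0127), and leaving out any 1 array gave 1.27 to 1.87, called each time.

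Gars, the glycyl enzyme that serves both cytosol and mitochondria from 1 gene, was the steadiest of the cytosolic calls. Its levels were 10.26, 9.91 and 9.97 in controls, 10.23, 10.35 and 10.35 in the non-malignant group and 10.91, 11 and 11.11 in tumors. All tumors lay above all other arrays, while non-malignant samples and controls overlapped. The log2 fold change of tumors over controls was 0.97 ± 0.15 (1.95-fold, limma adjusted p = 0.00375), and it kept the call without any 1 array (0.9 to 1.07). Kars, the lysyl enzyme of the complex and the other gene with a product in both compartments, read 9.2, 9.15 and 9.53 in controls, 9.59, 9.92 and 9.79 in the non-malignant group and 9.82, 10.38 and 10.88 in tumors. It rose by 1.07 ± 0.26 (2.1-fold, adjusted p = 0.0226), but its call ended without control 1, control 2 or tumor 2, at 1 to 1.06 (adjusted p = 0.0643 to 0.0804).

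Within the multisynthetase complex, Eprs joins the glutamyl and prolyl enzymes in a single protein. It read 9.02, 9.04 and 8.94 in controls, 9.39, 8.9 and 9.02 in the non-malignant group and 9.72, 9.98 and 10.07 in tumors, so that controls and non-malignant samples overlapped and every tumor stood above both. Its log2 fold change in tumors over controls was 0.92 ± 0.18 (adjusted p = 0.0104), called without any 1 array (0.85 to 1.02). Its other tested probe sets gave smaller differences (0.46 and 0.44, adjusted p = 0.151 and 0.199), and with the mean of its probe sets the value was 0.44 and did not pass.

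Rars, the arginyl enzyme, read 9.18, 8.95 and 9.1 in controls, 9.44, 9.46 and 9.62 in the non-malignant group and 9.53, 10.17 and 10.18 in tumors. Mars, the methionyl enzyme that also supplies the initiator tRNA, read 8.88, 8.4 and 8.97, then 9.25, 9.16 and 9.11, then 9.17, 10 and 9.76 in the same order. Lars, the leucyl enzyme known as a leucine sensor of mTORC1 signalling, read 8.47, 8.28 and 8.49, then 8.74, 8.71 and 8.64, then 8.95, 9.06 and 9.05. All 3 genes had every tumor and every non-malignant array above every control, and for Rars and Mars tumor 1 lay within the non-malignant range. The log2 fold changes over controls were 0.88 ± 0.2 for Rars (adjusted p = 0.0186), 0.89 ± 0.24 for Mars (adjusted p = 0.0348) and 0.6 ± 0.15 for Lars (adjusted p = 0.0232). The call of Rars ended without control 2, control 3 or tumor 2 (0.78 to 0.89), that of Lars without any 1 control, non-malignant 2 or tumor 2 (0.54 to 0.64), and that of Mars without any 1 array but tumor 1 (0.71 to 1). The complex members that did not pass were Qars, the glutaminyl enzyme, at 10.53 ± 0.22 (SD) in controls and 10.68 ± 0.2 in tumors, and Iars, the isoleucyl enzyme, at 8.43 ± 0.12 and 8.75 ± 0.04. Of the scaffold genes, Aimp2 rose (8.68 ± 0.35 in controls, 9.95 ± 0.43 in tumors, log2 fold change 1.27, adjusted p = 0.0109), as did Eef1e1 (8.45 ± 0.06, 9.62 ± 0.5, log2 fold change 1.17, adjusted p = 0.0172), whereas Aimp1 stood at 9.81 ± 0.16 and 10.08 ± 0.1 (adjusted p = 0.258).

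Outside the complex, Cars, Sars and Nars rose beside Vars and Gars. Cars, the cysteinyl enzyme, read 7.94, 7.18 and 7.41 in controls, 7.86, 7.73 and 7.53 in the non-malignant group and 8.28, 8.28 and 8.71 in tumors; every tumor lay above every other array, and controls and non-malignant samples overlapped. Sars, the seryl enzyme, which also loads the tRNA for selenocysteine, read 10.16, 9.78 and 10.29, then 10.41, 10.26 and 10.34, then 10.41, 11.08 and 11.12 in the same order. Tumor 1 was level with non-malignant 1 there, and tumors 2 and 3 stood apart. Nars, the asparaginyl enzyme, read 9.44, 9.29 and 9.55, then 9.76, 9.94 and 9.81, then 9.85, 10.33 and 10.33, with both other groups above all controls. The log2 fold changes of tumors over controls were 0.91 ± 0.23 for Cars (adjusted p = 0.0251), 0.79 ± 0.22 for Sars (adjusted p = 0.0383) and 0.74 ± 0.18 for Nars (adjusted p = 0.022). The call of Cars ended without control 2, control 3 or tumor 3 (0.75 to 0.86), that of Nars without any 1 control or tumor 2 (0.66 to 0.81) and that of Sars without any 1 array but tumor 1 (0.64 to 0.9). For Sars the second probe set was also called (0.88, adjusted p = 0.0413), whereas those of Cars and Nars were not (−0.04 and 0.46, adjusted p = 0.86 and 0.256). With the mean of its probe sets Cars differed by 0.44 and did not pass (adjusted p = 0.0734), and neither did Nars, at 0.6 (adjusted p = 0.0598).

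The other 7 members outside the complex did not pass. Hars, the histidyl enzyme, stood at 9.51 ± 0.48 in controls, 10.24 ± 0.33 in the non-malignant group and 10.4 ± 0.31 in tumors (adjusted p = 0.0597 for tumors against controls). Wars, the tryptophanyl enzyme, stood at 8.89 ± 0.42, 9.27 ± 0.21 and 9.61 ± 0.28, and all 4 of its probe sets had positive log2 differences between tumors and controls, from 0.56 to 0.83, none of them called. Aars, the alanyl enzyme, stood at 9.09 ± 0.19, 9.43 ± 0.35 and 9.7 ± 0.3, and its second probe set was called (0.89, adjusted p = 0.0374). Its promoter window holds both an E-box and a response element, as do those of Iars and Tars. Yars (7.71 ± 0.29 in controls, 8.36 ± 0.45 in tumors), Tars (9.08 ± 0.14 and 9.42 ± 0.12) and Farsa (9.36 ± 0.4 and 10.01 ± 0.47) charge tyrosine, threonine and, as the catalytic alpha chain, phenylalanine. Farsb, the beta chain that pairs with Farsa, was the 1 cytosolic member with a lower mean in tumors, at 8.91 ± 0.2 in controls and 8.75 ± 0.43 in tumors. That value rests on tumor 3 (8.28, against 8.88 and 9.11 on tumors 1 and 2), and its other 3 probe sets had positive differences of 0.2 to 0.22. Of the 5 cytosolic members with a response element in the promoter window, 1 (Gars) rose, and of the 4 with an E-box none was called by its representative probe set. Among all 19 cytosolic members 10 rose, and among all genes 8.48%. Only 12 cytosolic members had a window, so these counts are small, and the part of the sites in the levels was not tested.

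Fewer of the mitochondrial synthetases rose in the tumors. Of 15 tested, 4 rose (Nars2, Tars2, Yars2 and Rars2), 0 fell and 11 did not pass, against the same 8.48% and 7.19% of all genes, and in 6 of 15 every tumor lay above every control, as in 18.2% of all genes. The median log2 fold change of the 15 was 0.27, against 0.06 over all genes. The difference between the mitochondrial and cytosolic shares was not tested.

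**Figure D2:**
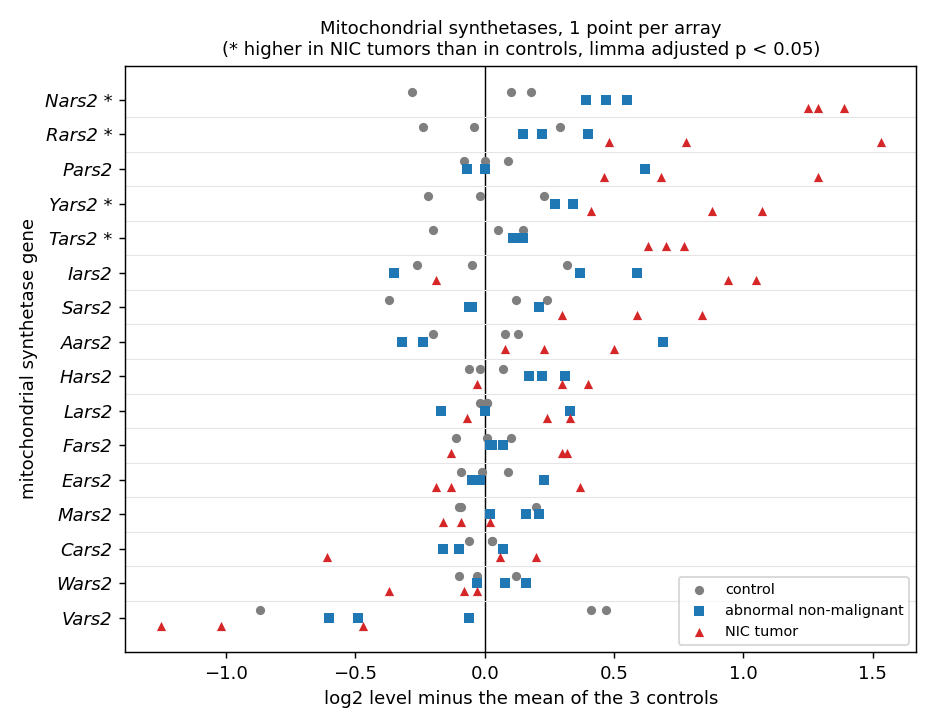
Log2 level of the 16 mitochondrial synthetases on each array (points; horizontal axis, log2 units) minus the mean of the 3 controls, with an asterisk on the 4 that rose in tumors; Mars2 is below the filter. Nars2 has its 3 tumor points close together and apart from all others, and the tumor points of Vars2 lie to the left of its controls 1 and 3.

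Nars2, the mitochondrial asparaginyl enzyme, had the smallest adjusted p of all members. It read 6.28, 5.82 and 6.2 in controls, 6.65, 6.57 and 6.49 in the non-malignant group and 7.35, 7.49 and 7.39 in tumors. The 3 groups did not overlap, and the tumors lay within 0.14 of one another. The log2 fold change of tumors over controls was 1.31 ± 0.15 (2.48-fold, limma adjusted p = 0.00117), called without any 1 array (1.17 to 1.4). Its second probe set read 3.44 to 4.05 on the 9 arrays, below the 40th percentile of each, and with the mean of both the value was 0.76 (adjusted p = 0.00377). Tars2, the mitochondrial threonyl enzyme, read 8.01, 7.76 and 8.11, then 8.07, 8.11 and 8.11, then 8.59, 8.66 and 8.73 in the same order. Tumors were again tight and above all other arrays, with controls and non-malignant samples overlapping. Its log2 fold change was 0.7 ± 0.15 (adjusted p = 0.0166), its second probe set gave 0.83 (adjusted p = 0.0352), and its call ended without control 2 alone (0.6, adjusted p = 0.0632).

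Yars2 and Rars2, the mitochondrial tyrosyl and arginyl enzymes, rose with wider spread. Yars2 read 6.9, 6.45 and 6.65 in controls, 7.01, 6.94 and 6.94 in the non-malignant group and 7.08, 7.74 and 7.55 in tumors, with no overlap between the 3 groups. Rars2 read 8.43, 7.9 and 8.1, then 8.54, 8.29 and 8.36, then 8.62, 8.92 and 9.67, with tumor 3 far above the other tumors. The log2 fold changes were 0.79 ± 0.2 for Yars2 (adjusted p = 0.0253) and 0.93 ± 0.27 for Rars2 (adjusted p = 0.043). The call of Yars2 ended without control 2, control 3, tumor 2 or tumor 3 (0.65 to 0.78), and that of Rars2 without any 1 array but tumor 1 (0.63 to 1.07). The second probe set of Yars2 gave −0.11 (adjusted p = 0.849), and with the mean of both the value was 0.34 and did not pass (adjusted p = 0.241).

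Among the 11 that did not pass, Pars2 (prolyl; 7.05 ± 0.09 in controls, 7.86 ± 0.43 in tumors) and Sars2 (seryl; 8.03 ± 0.32 and 8.6 ± 0.27) also had every tumor above every control. Iars2 (isoleucyl) read 7.34, 7.45 and 6.21 on the tumors, so that tumor 3 lay within the controls (6.14 to 6.72). Aars2 (7.92 ± 0.18 in controls, 8.19 ± 0.21 in tumors), Hars2 (7.96 ± 0.07, 8.19 ± 0.22), Lars2 (8.1 ± 0.02, 8.26 ± 0.21), Fars2 (8.42 ± 0.1, 8.58 ± 0.26) and Ears2 (6.59 ± 0.09, 6.61 ± 0.31) overlapped between these groups. The second probe set of Ears2 was called instead (0.93, adjusted p = 0.00797). The remaining 3 had lower means in tumors: Cars2 (7.61 ± 0.05, 7.49 ± 0.43), Wars2 (6.82 ± 0.12, 6.66 ± 0.18) and Vars2.

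Vars2, the mitochondrial valyl enzyme, ran opposite to Vars in its means. It read 9.28, 7.94 and 9.22 in controls, 8.75, 8.32 and 8.21 in the non-malignant group and 8.34, 7.56 and 7.79 in tumors. Control 2 fell inside the tumor range, and controls 1 and 3 stood above every other array. The log2 fold change of tumors against controls was −0.92 ± 0.36 (adjusted p = 0.117), and without control 2 it was −1.35 and called (adjusted p = 0.0262). The second Vars2 probe set had the same low control 2 (8.56, 7.94 and 8.77 in controls, 8.02, 7.56 and 7.88 in tumors).

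**Figure D3:**
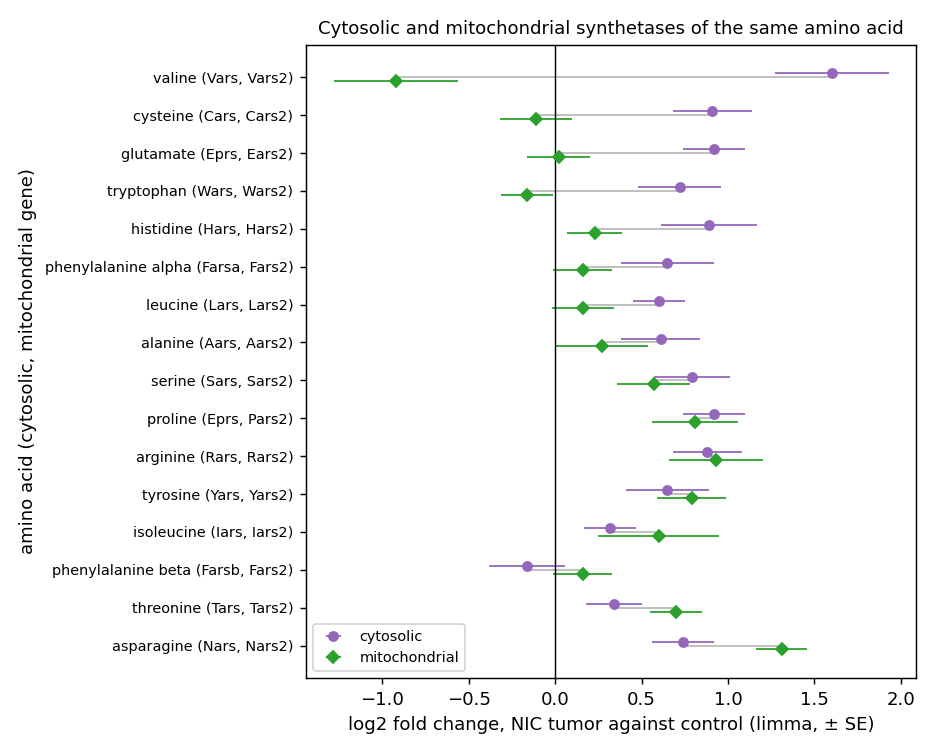
Log2 fold change of NIC tumors against controls (horizontal axis, log2 units, bars ± SE from limma) for cytosolic (circles) and mitochondrial (diamonds) synthetases of the same amino acid, ordered by their difference. Valine (Vars, Vars2) has the widest gap, 2.52, and asparagine (Nars, Nars2) the widest gap in the other direction, −0.57.

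Set side by side by amino acid, the cytosolic gene had the larger log2 fold change in 10 of 16 pairings, in which Eprs and Fars2 each enter 2 times. The median difference, cytosolic minus mitochondrial, was 0.28. It was widest for valine (1.6 against −0.92, a difference of 2.52), then cysteine (0.91 and −0.11), glutamate (0.92 and 0.02) and tryptophan (0.72 and −0.16). For valine and tryptophan the cytosolic value was larger on every tested probe set. The other gaps depend on the probe set chosen. The second Cars probe set gave −0.04 and the other Cars2 ones 0.28 and −0.01. The other tested Eprs ones gave 0.46 and 0.44, and the second Ears2 one 0.93. The mitochondrial gene had the larger value for asparagine (0.74 and 1.31), threonine (0.34 and 0.7), isoleucine (0.32 and 0.6), tyrosine (0.65 and 0.79) and arginine (0.88 and 0.93), and for Fars2 against Farsb. These differences between genes were not tested.

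No synthetase was called between the abnormal non-malignant samples and the controls, although most cytosolic levels were somewhat higher. Of 34 tested members 0 rose and 0 fell by limma, where 2.87% of all genes rose and 0.654% fell. At an unadjusted p under 0.05 there were 4 of 34 members, near the share of all genes (1766 of 13296). With array weights 4 cytosolic and 1 mitochondrial members were called higher, where 11.5% of all genes were. The 19 cytosolic members had a median log2 fold change of 0.34 (0.01 over all genes), 18 of them positive, and in 9 all 3 non-malignant arrays lay above all 3 controls, as in 16.9% of all genes. Iars had the smallest adjusted p (0.0971), at 8.52, 8.48 and 8.3 in controls and 8.9, 9.03 and 8.96 in non-malignant samples, where it also stood above the tumors (8.75, 8.71 and 8.8). Its second probe set read 8.3, 8.38 and 7.62 in controls and 8.49, 8.9 and 8.69 in non-malignant samples, again without overlap. On that probe set the tumors (8.65, 8.47 and 8.9) overlapped with the non-malignant samples. Hars (9.51 ± 0.48 and 10.24 ± 0.33) and Vars (9.07 ± 0.57 and 9.78 ± 0.14) had the widest gaps between these means. Without control 2, which was low for many cytosolic members, the median was 0.21. The 15 mitochondrial members had a median of 0.07, and 3 of them (Nars2, Yars2 and Hars2) had all non-malignant arrays above all controls.

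Of 6 measured interferon response genes, 3 rose in the non-malignant samples against controls, where 2.87% of all genes rose. Among the 3 were Ifit1 (by 3.65) and Irf7 (by 2.13). From the non-malignant samples to the tumors 4 of the 6 fell, where 2.7% of all genes fell. Wars, whose human counterpart is inducible by interferon, stood at 9.49, 9.25 and 9.07 in non-malignant samples against 9.13, 8.4 and 9.12 in controls, and the groups overlapped.

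Between tumors and non-malignant samples, 3 members rose and 0 fell, against 1.53% and 2.7% of all genes. Eprs differed by 0.82 ± 0.18 (limma adjusted p = 0.0395), Gars by 0.7 ± 0.15 (adjusted p = 0.0354) and Nars2 by 0.84 ± 0.15 (adjusted p = 0.025). With each probe set tested on its own, Eprs (limma adjusted p = 0.0566) and Gars (0.051) did not pass, and Nars2 did (0.0408). The other tested Eprs probe sets gave 0.39 and 0.17 (adjusted p = 0.264 and 0.643), and the mean of its probe sets gave 0.41 (adjusted p = 0.109). All 3 calls ended when non-malignant arrays 2 and 3 were averaged and counted as 1 sample, where 0.0529% of all genes rose. They also ended with single arrays left out: Eprs in all fits but those without non-malignant 1 or tumor 1 (0.72 to 0.82 where lost), Gars in all but those without control 2 or tumor 1 (0.65 to 0.72), and Nars2 without any 1 non-malignant array or tumor 2 (0.8 to 0.88). Without tumor 1, 9 cytosolic and 5 mitochondrial members were called, where 11.9% of all genes were. The median log2 fold change was 0.35 for cytosolic and 0.23 for mitochondrial members (0.03 over all genes). All tumors lay above all non-malignant arrays in 6 of 19 cytosolic and 5 of 15 mitochondrial members (12.3% of all genes). All lay below in 2 cytosolic members, Iars and Farsb (14.8% of all genes). This held for their representative probe sets only. The second Iars probe set overlapped between these groups (log2 difference −0.02), and the other Farsb probe sets differed by 0.05, 0.04 and −0.08.

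The tumors themselves were unequal. Relative to the mean of the controls, the median over the 19 cytosolic members was 0.42 on tumor 1, 0.9 on tumor 2 and 0.93 on tumor 3, against 0.28 to 0.33 on the non-malignant arrays and −0.14 to 0.13 on the controls. Control 2 held the lowest value. The mitochondrial median was 0.3 to 0.41 on tumors, 0 to 0.21 on non-malignant arrays and −0.11 to 0.05 on controls, while the median of all genes ran from −0.02 to 0.09 over the 9 arrays. Of the 14 members called in tumors against controls, 4 kept the call without control 2 (where 4% of all genes rose), 6 without control 3 (4.7%), 6 without tumor 2 (5.19%), 8 without control 1 (5.17%) and all 14 without tumor 1 (16.6%).

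**Figure D4:**
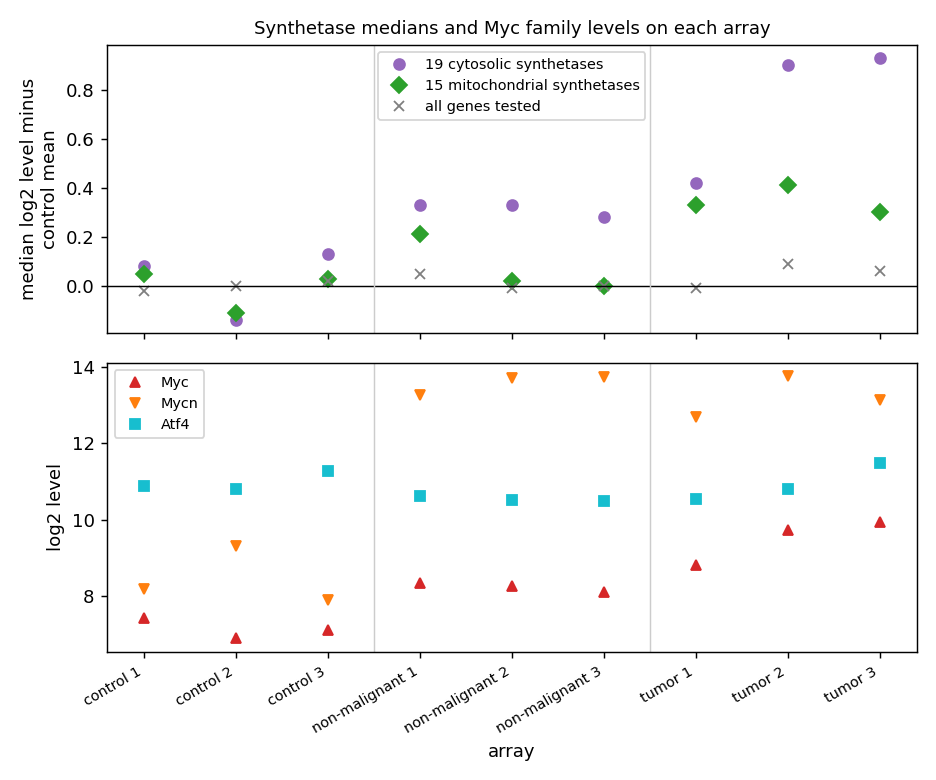
Top, median over cytosolic members, mitochondrial members and all genes tested on each array, in log2 units relative to the control mean; bottom, log2 levels of Myc, Mycn and Atf4 on the same arrays. Tumors 2 and 3 have the highest cytosolic medians (0.9 and 0.93) and the highest Myc (9.72 and 9.93), whereas Mycn is high on all non-malignant and tumor arrays.

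The growth regulators and the amino acid response are given beside these medians as levels on the same arrays, and their part in the synthetase values was not tested. Myc read 7.43, 6.9 and 7.12 in controls, 8.34, 8.27 and 8.1 in the non-malignant group and 8.81, 9.72 and 9.93 in tumors, without overlap between groups. Mycn read 7.9 to 9.32 in controls, 13.27 to 13.73 in the non-malignant group and 12.68 to 13.76 in tumors, so that its level did not separate the latter groups. Atf4 mRNA read 10.89, 10.8 and 11.28 in controls, 10.63, 10.52 and 10.49 in the non-malignant group and 10.54, 10.8 and 11.48 in tumors, and tumors and controls overlapped (adjusted p = 0.906). ATF4 is controlled largely at translation, which arrays do not measure. Of 18 tested amino acid response genes, 4 rose and 1 fell in tumors against controls, where 8.48% of all genes rose and 7.19% fell. The risers with the largest changes were the serine and glycine enzymes Shmt2 (1.97, adjusted p = 0.00645) and Psat1 (1.37, adjusted p = 0.0139), and the cystine transporter gene Slc7a11 fell by 1.46 (adjusted p = 0.000617). Asns, the asparagine synthetase and a classical ATF4 target, read 5.54, 7.23 and 7.37 on tumors 1, 2 and 3 against 5.4 to 5.72 in controls, so that tumor 1 lay within the controls, and it did not pass (adjusted p = 0.0781). Of the 11 cytosolic synthetases commonly listed as ATF4 targets, 6 rose in tumors (median 0.74), as did 4 of the other 8, against the same 8.48% of all genes.

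Some other genes of tRNA charging and use rose in tumors against controls, where 8.48% of all genes rose. Of this kind were 3 of 9 further charging and proofreading genes: Dtd1, which removes D-amino acids from tRNA (1.37, adjusted p = 0.0015), Aarsd1, an alanyl-tRNA editing protein (0.97, adjusted p = 0.0383), and Pstk, the kinase of the selenocysteine route (0.74, adjusted p = 0.0117). Of 9 tRNA export and elongation genes 3 rose, the elongation factor 1 subunits Eef1d (0.77, adjusted p = 0.0201) and Eef1b2 (0.7, adjusted p = 0.0223) and the translocase Eef2 (0.43, adjusted p = 0.0407). Of 21 genes of RNA polymerase III, which transcribes tRNA genes, and its factors, 3 rose: Polr3e (1.22, adjusted p = 0.00502), Gtf3a (0.88, adjusted p = 0.005) and Polr3c (0.83, adjusted p = 0.0132). That share was near the one of all genes, and 11 of the 21 had positive and 10 negative differences (median 0.19). No gene of these lists fell in this comparison, and none rose or fell in non-malignant samples against controls. The choice of genes here was made with earlier results of these arrays known.

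Cell type markers and measures of RNA quality are given by group here, and their part in the synthetase values was not tested. Marker levels in bulk RNA do not tell a change in cell makeup from a change in RNA per cell. The mean log2 level of the 11 T lineage markers was 10.19 to 11.6 in tumors against 11.73 to 11.95 in controls and 12.1 to 12.2 in non-malignant samples. In tumors against controls 4 of 11 fell, where 7.19% of all genes fell. Their log2 fold changes were −4.4 for Rag1, −2.12 for Cd4, −2.09 for Cd247 and −1.29 for Thy1. The other 7 did not pass, and 2 of them, Cd2 (0.56) and Zap70 (0.39), had positive differences. Cd2 and Zap70 were called higher in non-malignant samples against controls, as were 2.87% of all genes. The mean over 10 myeloid markers was 5.7 to 5.98 in controls, 6.73 to 6.82 in the non-malignant group and 6.01 to 7.5 in tumors, with 7 to 10 markers above the 40th percentile on each array. Of 9 tested, 1 (Ctss) was called higher in both comparisons with controls, where 8.48% (tumors) and 2.87% (non-malignant samples) of all genes were. The 6 B cell markers had means of 6.87 to 7.14, 6.54 to 7.1 and 6.43 to 7.13, the 4 erythroid markers 5.52 to 5.72, 6.35 to 6.49 and 6.06 to 7.59, and the 7 thymic stroma markers 5.6 to 5.77, 5.56 to 5.64 and 5.58 to 6.09, in the order controls, non-malignant samples and tumors. Of 5 tested B cell markers 2 fell in tumors against controls, where 7.19% of all genes fell, with log2 fold changes of −1.38 for Cd79b and −0.89 for Ighm. The other 3 did not pass, and 2 of them, Cd79a (0.32) and Pax5 (0.3), had positive differences. The 3′ minus 5′ difference of the Gapdh control probe sets was −0.16 to −0.05 in tumors, −0.11 to 0.75 in the non-malignant group and −0.09 to 0.44 in controls, and the groups overlapped. For beta-actin it was 0.1 to 0.22, 0.23 to 0.38 and 0.11 to 0.46 in the same order, so that tumors overlapped with controls but not with the non-malignant group. The bioB spike-in signal was 8.46, 9.05 and 10.67 on tumors 1, 2 and 3, 7.22 to 8.42 in the non-malignant group and 7.28 to 8.28 in controls. Every tumor thus lay above every other array in this technical signal.

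Probe sets of a member did not always move alike. With each probe set tested on its own, 12 of 38 cytosolic and 5 of 25 mitochondrial ones rose in tumors and none fell, and these belonged to 11 cytosolic and 4 mitochondrial members. The share of all probe sets that rose in this fit was not counted, so these numbers stand without a background. Over this larger number of tests Rars2 did not pass (adjusted p = 0.0543), and Ears2 entered through its second probe set. The representative probe sets of Farsb, Qars and Wars are of a type (_x_at) that can cross-hybridize to related sequences. The other Qars probe sets had differences of 0.42 and 0.36 where the representative one had 0.15, none of them called.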

How the data were processed

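RNA of sorted cells was measured on 9 Affymetrix arrays, 1 per sample, 3 in each group. The authors deposited log2 values of 45101 probe sets, with array medians of 5.67 to 5.77; per the labels, a microarray core did standard processing, and the background correction, normalization and summarization are not given in the sources used here. The log base was read from the values (2.68 to 14.57). Probe sets with 1 gene symbol (34945) were matched to current names by Entrez ID (34741), symbol (143) or annotation (61). Each gene took its probe set with the highest mean, and the filter was the 40th percentile on at least 3 arrays. limma 3.58.1 in R 4.3.3 fitted all 9 arrays with a variance trend (residual degrees of freedom 6, prior 3.6), two-sided; tables were read with pandas 2.3.3 in Python 3.11.15. The fit was tested on simulated data, where the adjusted p was too liberal in comparisons with tumors. The genes named are all members, the called genes of each list with the largest change (at most 3 per list), and Atf4, Asns, Myc, Mycn, Aimp1, Aimp2 and Eef1e1; Ifit1, Irf7 and the marker genes serve as values beside them. The members and lists were chosen with earlier results of these data known. Alternatives were other scalings, filters, probe set rules, variance models, array weights, only the groups compared, averaged non-malignant arrays 2 and 3, the replicate number as a block, a stricter threshold and leaving out each array.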

Additional observations from a re-analysis of the deposited data

How the results depend on the processing

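No result reversed under any alternative: of 729 values compared, 567 were kept, 111 (single genes) lost the call and 51 counts or medians moved. Single genes were kept with their direction and call, counts within 1.5 times and medians within 0.19 (cytosolic) or 0.09 (mitochondrial), so members could cross the threshold within a kept count. In tumors against controls the cytosolic median stayed within 0.63 to 0.9. The number of cytosolic members called higher there, 10, became 16 with array weights (which gave tumors 1 and 3 little weight, and called 21.8% of all genes higher), 3 with only those groups in the fit (3.76% of all genes) and 1 at an adjusted p under 0.01, and ran from 3 to 13 with 1 array left out (4% to 16.6%). The mitochondrial number, 4, became 7 with array weights, 1 with only those groups and 1 at an adjusted p under 0.01, and ran from 1 to 5; the number called lower became 1 with array weights and ran from 0 to 1 (Vars2). The mitochondrial median, 0.27, was 0.37 after quantile normalization and ran from 0.2 to 0.36. In non-malignant samples against controls, array weights called 4 cytosolic and 1 mitochondrial members higher (11.5% of all genes), and a fit of only those groups called 1 cytosolic member (6.18%). In tumors against non-malignant samples the 2 cytosolic calls became 1 with the mean of all probe sets (1.46% of all genes) and 15 with array weights (24.1%). They ran from 0 to 9 with 1 array left out (0.0453% to 11.9%). The 1 mitochondrial call became 6 with array weights and ran from 0 to 5. For both sets the number was 0 with only those groups (0.165% of all genes) and with non-malignant 2 and 3 averaged (0.0529%). It was also 0 at an adjusted p under 0.01, a threshold at which shares of all genes were not counted in any comparison. The mitochondrial median, 0.23, was 0.37 after quantile normalization, 0.46 with array weights and 0.12 with those arrays averaged, and ran from 0.11 to 0.27. Except for fewer samples in the fit or a stricter threshold, the cause was not tested. Deviations from the group mean correlated at −0.05 to 0.22 between same-numbered samples of different groups, and at −0.26 to 0.21 between the others. With 3 samples a group, these correlations cannot decide whether the replicate number marks a pairing. With the replicate number as a block, 8 cytosolic and 2 mitochondrial members were called higher in tumors against controls (7.27% of all genes). Against non-malignant samples 0 and 1 were (0.542% of all genes). The adjusted p was too liberal for tumors on simulated data. Signal near background limits Mars2, and values of 3 arrays a group limit the rest.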
